A study of Mus musculus with 32 samples.

Results

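The Igkv3 family is the group of variable (V) segments of the mouse immunoglobulin κ light chain locus that lies closest to the joining (Jκ) segments. Its members here were the segments whose name begins with Igkv3- in the deposited rearrangement counts, namely Igkv3-12, Igkv3-10, Igkv3-9, Igkv3-7, Igkv3-5, Igkv3-4, Igkv3-3, Igkv3-2 and Igkv3-1, 9 of the 112 segments counted. The study asked whether each parental copy of the κ locus opens and rearranges its own set of V segments. It measured rearranged κ RNA (VJ-seq) in pre-B cells of F1 female mice from a cross of C57BL/6 (B6) with M. castaneous (Cast), so that cells carried a B6 and a Cast copy of the locus. The mice were 8 to 12 weeks old, and no other allele or transgene is described for them.

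The libraries came from 5 clones called 3, 4, 8, B52 and E9-3. Bone marrow cells were first cultured in IL-7 on ST2 feeder cells to select pre-B cells, and each clone was then grown from a single cultured cell. The clones were sequenced 48 h after IL-7 removal, which starts κ rearrangement. Clone 4 was also followed at 12, 24, 36 and 48 h in a separate time course. A pool served as the mixed reference. Its labels describe cultured pre-B cells, whereas the methods describe RNA of bone marrow cells, and no time without IL-7 is given for it, so that the source of the pool is uncertain. A clone stands for 1 cell, the number of mice behind the clones was not given in the sources used here, and clone 3 is described as having lost Cast V segments at late passages. Each condition had 1 library, except clone 4 at 48 h, which had 2, and the tables hold only V segments, so that the cell type could not be checked against marker genes.

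In each developing B cell the RAG1 and RAG2 recombinase joins a V segment to a Jκ segment by cutting at a recombination signal beside each of them. A V signal of the κ locus has a heptamer, a short spacer and a nonamer. A V segment that points the same way as Jκ joins by deletion of the DNA in between, and one that points the opposite way joins by inversion. V segments lying upstream of a first joint can be used again in a second round, which is one way by which light chains are edited. VJ-seq counts the RNA of joined segments, so that fewer cells with a joint and less RNA per cell cannot be told apart.

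All 9 members point the same way as Jκ on chromosome 6 of mm10 (GRCm38), between 70518250 and 70704177, whereas 70 of the 111 segments found in the GENCODE M21 annotation point the opposite way. Igkv3-12 (70518250 to 70518849) lies farthest out, 203713 bases before Jκ1, and Igkv3-1 (70703578 to 70704177) lies nearest, 18385 bases before it. Each is annotated as a functional gene, and each has a second exon of 310 bases that codes for the variable domain and ends at the recombination signal. The signals are shown because they were nearly identical across the family, with the heptamer and the nonamer in capitals and the spacer of 12 bases in lower case. The first is that of Igkv3-7 (chr6:70608037-70608064, plus strand), the second that of Igkv3-9 (chr6:70588778-70588805, plus strand) and the third that of Igkv6-32 (chr6:70073996-70074023, minus strand), a segment of a neighbouring family.
Igkv3-7: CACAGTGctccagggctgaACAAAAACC
Igkv3-9: CACAGTGctccagggctggACAAAAACC
Igkv6-32: CACAGTGcttcagcctcctACACAAACC

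The signal of Igkv3-7 was shared letter for letter by 8 of the 9 members. That of Igkv3-9 departed from it by A19G, counted from 1 at the first base of the heptamer. The letters CACAGTG and ACAAAAACC, 12 bases apart and read only at the end of the V exon on the strand of the segment, were both present in 9 of 9 members and in 25 of the 102 other segments found (24.5%), with 0 of 9 in Igkv6 and 0 of 10 in Igkv8. Members that share this signal differed widely in level.

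The promoter window was the 250 bases before the start codon, or before the start of the gene where no start codon was annotated. It held the octamer ATTTGCAT, or its reverse complement ATGCAAAT, in 9 of 9 members and in 69.6% of the other segments. The count was 0 of 9 in Igkv6 and 0 of 10 in Igkv8. The octamer is the site read by Oct factors in immunoglobulin promoters, and in the members it began 91 to 93 bases before the end of this window. It is shown in capitals for Igkv3-7 (chr6:70607337-70607360) and Igkv3-2 (chr6:70698368-70698391), a pair of the most abundant members. A match describes these letters only.
Igkv3-7: ctgagctgATTTGCATatggagtc
Igkv3-2: ctctgctgATTTGCATatgaaata

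Members resemble each other closely, which bears on how reads were divided between them. Over the 36 pairs of members, the V exons were 84.2% to 98.1% identical in the B6 reference, with a median of 88.4%, and no segment outside the family passed 69.6%. The closest pairs were Igkv3-10 with Igkv3-5, which differ at 6 of 310 bases, and Igkv3-12 with Igkv3-7, which differ at 10. The last 150 bases of these exons, next to the joint, are shown with the bases that differ within each pair in capitals (Igkv3-12 chr6:70518700-70518849, Igkv3-7 chr6:70607887-70608036, Igkv3-10 chr6:70573081-70573230 and Igkv3-5 chr6:70663746-70663895, all plus strand).
Igkv3-12: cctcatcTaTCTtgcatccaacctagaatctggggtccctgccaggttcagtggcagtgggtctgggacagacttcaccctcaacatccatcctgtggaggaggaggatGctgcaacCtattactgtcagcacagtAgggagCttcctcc
Igkv3-7: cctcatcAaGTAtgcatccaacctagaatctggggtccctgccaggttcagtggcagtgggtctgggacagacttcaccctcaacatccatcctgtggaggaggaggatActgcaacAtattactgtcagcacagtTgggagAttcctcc
Igkv3-10: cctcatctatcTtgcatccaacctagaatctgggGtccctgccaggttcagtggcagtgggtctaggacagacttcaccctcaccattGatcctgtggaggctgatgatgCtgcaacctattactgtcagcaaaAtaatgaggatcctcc
Igkv3-5: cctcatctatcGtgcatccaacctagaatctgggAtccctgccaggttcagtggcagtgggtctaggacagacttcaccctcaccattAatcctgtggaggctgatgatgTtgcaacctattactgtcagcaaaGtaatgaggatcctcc
The first pair keeps 8 of its 10 differing bases in this stretch and the second pair 5 of its 6. Reads of a pair can be told apart only where they cover such bases, so that the split within each pair is uncertain.

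Igkv3 rearrangements made up very different parts of the 6 libraries of the clones and the pool. The family held 43.4% of all V reads in B52 (95% Wilson interval 43.1 to 43.8), 24.8% in E9-3 (24.3 to 25.3) and 14.4% in clone 3 (14.3 to 14.6). It held 7.70% in the pool (7.61 to 7.79), 5.00% in clone 8 (4.88 to 5.13) and 4.33% in clone 4 (4.17 to 4.49). No neighbours in this order had overlapping intervals, although these cover counting error only, since reads carried no molecular identifiers. Libraries held 34291 to 320951 reads. The second library of clone 4 at 48 h, with 10958 reads, gave 2.35% (2.08 to 2.65), so that the same clone differed by more between its libraries than clones 4 and 8 did. Igkv3-7 alone carried much of the highest values, which were 23.3% in B52 and 12.3% in E9-3 without it.

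**Figure D1:**
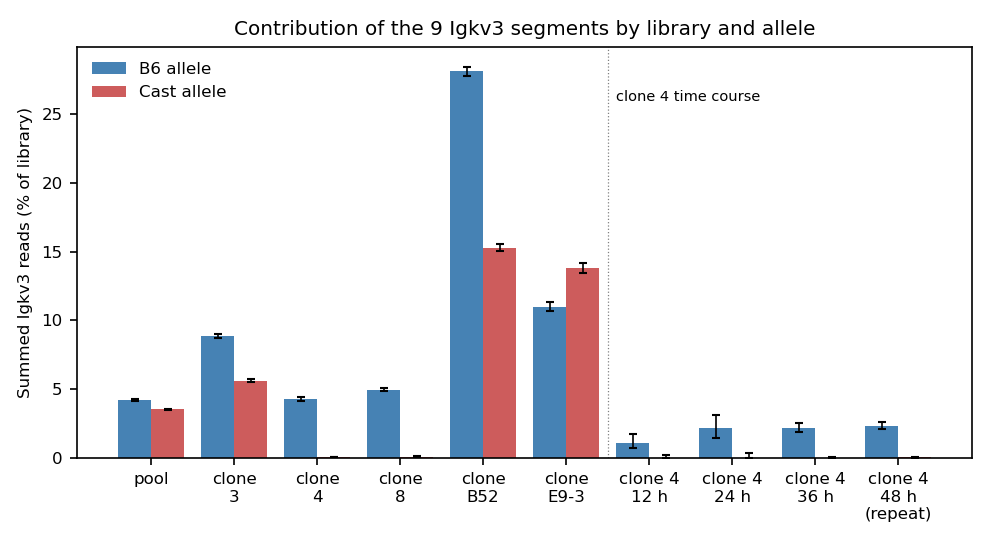
Summed reads of the 9 Igkv3 segments on the B6 allele (blue) and the Cast allele (red) as a percent of all V reads of each library, with 95% Wilson intervals. B52 stands highest on both alleles, with 28.1% on B6 and 15.3% on Cast, while the Cast bars of clones 4 and 8 are close to 0.

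The allelic balance of the family split the clones in another way. On the Cast allele it held 15.3% of the library in B52, 13.8% in E9-3, 5.61% in clone 3 and 3.51% in the pool, but 0.0655% in clone 8 and 0.0495% in clone 4. On the B6 allele it held 28.1% in B52, 11.0% in E9-3, 8.83% in clone 3, 4.94% in clone 8, 4.28% in clone 4 and 4.19% in the pool. Clones 4 and 8 thus stood close to the pool on B6 and far under it on Cast, although the second library of clone 4 at 48 h held 2.33% on B6, under the pool, and 0.0183% on Cast. Of the summed Igkv3 reads, 98.9% were on B6 in clone 4 and 98.7% in clone 8, against 64.8% in B52, 61.2% in clone 3, 54.5% in the pool and 44.4% in E9-3. Without Igkv3-7 the share in E9-3 was 70.1%. Over all other segments the B6 share was 70.5% in clone 4, 61.0% in clone 8, 66.6% in B52, 49.5% in clone 3, 57.7% in the pool and 56.7% in E9-3. With the alleles scaled to their totals, the Igkv3 share was 48.9% in B52 and 47.0% in the pool, on the other side of 50%, and 97.1% and 97.8% in clones 4 and 8.

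The families next upstream, Igkv6 (9 segments) and Igkv8 (11 segments), lay lower on Cast in the same clones, to a smaller extent in their summed reads. Of the Cast reads of clone 4, Igkv3 held 0.175% (0.124 to 0.247), Igkv6 5.64% and Igkv8 3.48%. Of those of clone 8, Igkv3 held 0.177% (0.141 to 0.220), Igkv6 0.867% and Igkv8 1.53%. In the pool the same shares of Cast reads were 8.23%, 13.8% and 4.30%. In B52 Igkv3 was instead the highest of these families, at 44.7% of Cast reads, with Igkv6 at 5.67% and Igkv8 at 3.98%. The same held in E9-3, with 29.8%, 9.57% and 5.72%, while in clone 3 Igkv6 (13.5%) stood above Igkv3 (11.5%) and Igkv8 (9.31%). Single segments of the neighbouring families did not all follow the sums. Igkv6-15, named after its values were seen, had 3913 Cast reads in the pool (1.22% of the library), 6 in clone 4 (0.00928%) and 2 in clone 8 (0.00168%), so that it was as nearly absent on Cast there as the Igkv3 members were. These families served as a description, and no test was made of the difference between them.

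**Figure D2:**
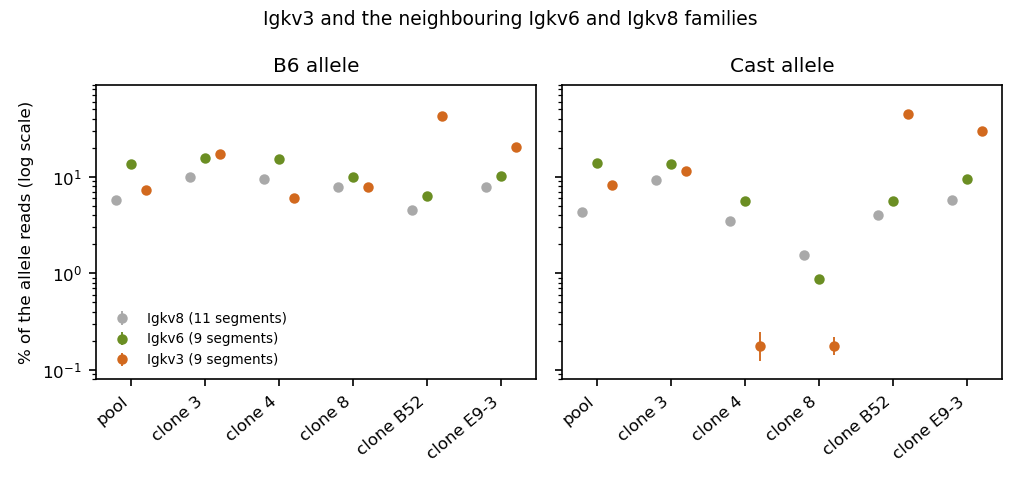
Reads of the Igkv3 (orange), Igkv6 (green) and Igkv8 (grey) families as a percent of all reads of the same allele, on a log axis, in the 6 libraries, with 95% Wilson intervals that are mostly smaller than the points. On Cast, Igkv3 runs from 0.175% in clone 4 to 44.7% in B52, while Igkv8 runs from 1.53% to 9.31%.

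A group of 4 members, Igkv3-12, Igkv3-7, Igkv3-4 and Igkv3-1, was read on both alleles. The other 5 came almost entirely from B6, a division made after their values were seen. Each V segment supplies most of the variable domain of a κ chain, and the members are described from the farthest to the nearest to Jκ within each group.

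Igkv3-12, the outermost member, ranked 2nd of all segments in B52 and clone 3. On B6 it held 7.32% of the library in B52, 2.79% in clone 3, 1.29% in clone 8, 1.04% in E9-3, 1.01% in the pool and 0.773% in clone 4. On Cast it held 4.40% in B52, 2.95% in clone 3, 2.08% in E9-3 and 1.33% in the pool, but 0.0269% in clone 8 (32 reads) and 0.0124% in clone 4 (8 reads). B6 levels were within a narrow range outside B52 and clone 3, whereas Cast levels fell into a high and a very low set. Its B6 share was 98.4% in clone 4 (96.9 to 99.2), 98.0% in clone 8, 62.5% in B52, 48.6% in clone 3 (47.6 to 49.6), 43.2% in the pool and 33.2% in E9-3 (30.5 to 36.1).

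Igkv3-7 was the most read segment of all in B52 and E9-3, with 20.1% and 12.5% of the library over both alleles. On B6 it held 10.7% in B52, 3.16% in clone 3, 2.41% in E9-3, 1.47% in clone 8, 1.19% in clone 4 and 0.611% in the pool. On Cast it held 10.1% in E9-3, 9.46% in B52, 1.11% in clone 3 and 0.857% in the pool, against 0.0151% in clone 8 (18 reads) and 0.00309% in clone 4 (2 reads). The pool was therefore the lowest of these 6 libraries on B6, and E9-3 the only one with several times more Igkv3-7 on Cast than on B6. The B6 share was 99.7% in clone 4 (99.1 to 99.9), 99.0% in clone 8, 74.1% in clone 3, 53.0% in B52, 41.6% in the pool and 19.2% in E9-3 (18.1 to 20.4). Compared with the pool, Igkv3-7 was 17.4-fold higher on B6 and 11.0-fold higher on Cast in B52, and 3.95-fold and 11.8-fold higher in E9-3.

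Igkv3-4 varied least on B6 among the members read on both alleles. Its B6 level was 2.29% in E9-3, 2.23% in B52, 1.16% in the pool, 1.06% in clone 8, 0.819% in clone 3 and 0.793% in clone 4. Its Cast level was 0.881% in E9-3, 0.714% in clone 3, 0.648% in the pool and 0.537% in B52, and 3 reads remained in clone 4 (0.00464%) and 4 in clone 8 (0.00336%). Here too clones 4 and 8 were set apart by the Cast copy. The B6 share ran from 99.7% in clone 8 and 99.4% in clone 4 through 80.6% in B52, 72.2% in E9-3 and 64.2% in the pool to 53.4% in clone 3, and lay above 50% in every library.

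Igkv3-1, the member next to Jκ, leaned to Cast in the pool and in clones 3, B52 and E9-3. On B6 it held 0.781% in B52, 0.402% in E9-3, 0.288% in the pool, 0.173% in clone 3, 0.113% in clone 4 and 0.0597% in clone 8. On Cast it held 0.891% in B52, 0.809% in clone 3, 0.682% in E9-3, 0.666% in the pool, 0.0294% in clone 4 (19 reads) and 0.0202% in clone 8 (24 reads). Its B6 share was 79.3% in clone 4, 74.7% in clone 8 (65.2 to 82.4), 46.7% in B52, 37.1% in E9-3, 30.2% in the pool and 17.6% in clone 3 (15.9 to 19.6). Among the 4 members it was the one with the lowest B6 share in clones 4 and 8.

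**Figure D3:**
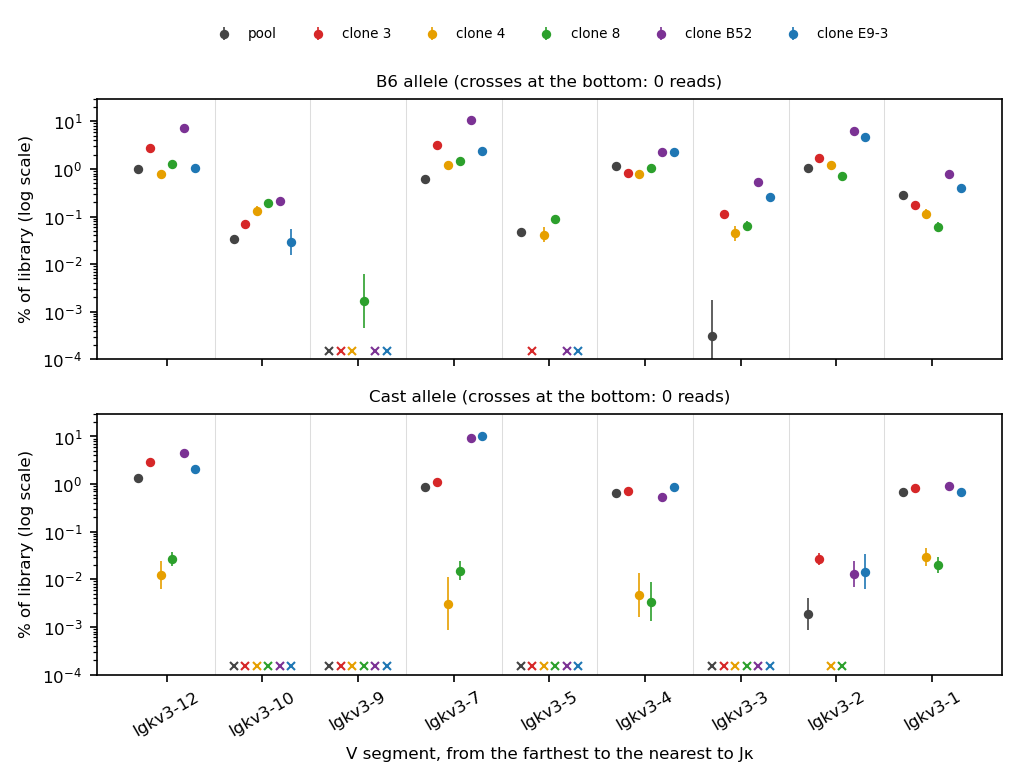
Level of each Igkv3 segment on the B6 allele (top) and the Cast allele (bottom) in the pool and the 5 clones, as a percent of all V reads of the library on a log axis, with 95% Wilson intervals. Crosses at the bottom mark 0 reads. On Cast, clones 4 (amber) and 8 (green) lie far under the other libraries for Igkv3-12, Igkv3-7, Igkv3-4 and Igkv3-1.

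Igkv3-2 was one of the main B6 segments and almost absent from the Cast counts. On B6 it held 6.40% in B52 and 4.58% in E9-3, the 3rd rank of all segments over both alleles in each, and 1.70% in clone 3, 1.19% in clone 4, 1.04% in the pool and 0.717% in clone 8. On Cast it had 45 reads in clone 3, 9 in B52, 6 in the pool, 5 in E9-3 and 0 in clones 4 and 8. The 6 libraries together held 13759 B6 and 65 Cast reads of it, and its B6 share never fell under 98.4%.

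Igkv3-10 was read at low levels and on B6 only. Its B6 level was 0.216% in B52, 0.188% in clone 8, 0.133% in clone 4, 0.0694% in clone 3, 0.0343% in the pool and 0.0292% in E9-3 (10 reads). B52 and clone 8 were thus highest, which is not the order seen for the abundant members.

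Igkv3-5, its closest relative in sequence, was found in some libraries and missing from the others. It had 152 B6 reads in the pool (0.0474%), 105 in clone 8 (0.0882%) and 27 in clone 4 (0.0417%). It had 0 reads in clones 3, B52 and E9-3. With 3 reads per library as the floor, it was at least 26.2-fold lower than the pool in clone 3, at least 10.9-fold lower in B52 and at least 5.41-fold lower in E9-3. Igkv3-10 held 0.0343% on B6 in the pool, against 0.0694% in clone 3, 0.216% in B52 and 0.0292% in E9-3. The summed level of this pair was not tested. A different split of reads between them cannot be told apart from a lower level of Igkv3-5.

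Igkv3-3 showed a different pattern, being read in every clone and hardly in the pool. On B6 it held 0.544% in B52 (376 reads), 0.260% in E9-3 (89 reads), 0.113% in clone 3 (188 reads), 0.0630% in clone 8 (75 reads) and 0.0448% in clone 4 (29 reads), and 1 read was found among the 320951 of the pool. No ratio to the pool is given, since it would rest on that read. Igkv3-9 was found in 2 B6 reads of clone 8 and in no other library.

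Igkv3-10, Igkv3-9, Igkv3-5 and Igkv3-3 had no Cast read in any of the 6 libraries. Together these held 319543 Cast reads, and 3 reads, the smallest number told from 0 here, would be 0.000939% of them. Over all segments, 20 of 112 (17.9%) likewise had no Cast read. The Cast sequence was not analysed here, so that a Cast copy that is missing or unused cannot be told apart from one whose reads could not be assigned to Cast. The same holds for Igkv3-2.

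**Figure D4:**
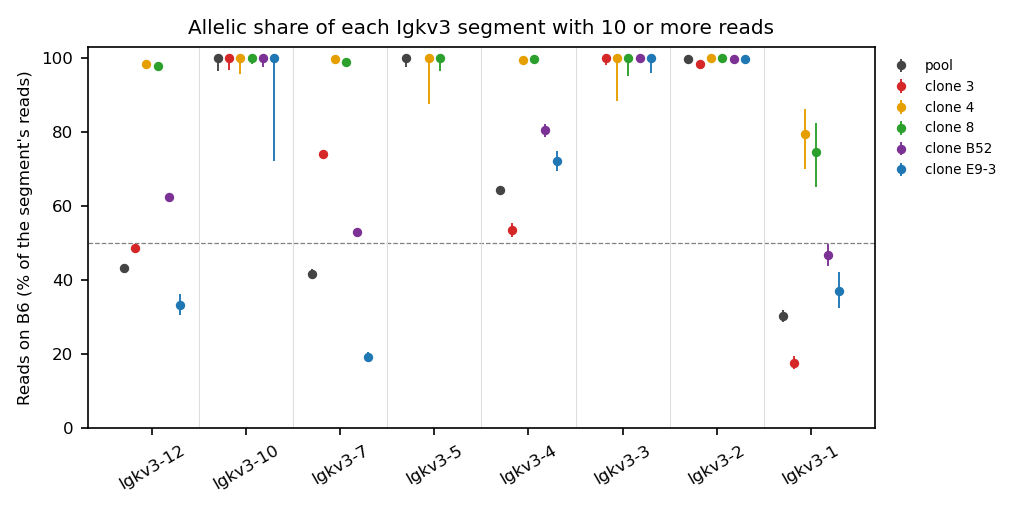
Percent of the reads of each Igkv3 segment that lie on the B6 allele, in libraries with at least 10 reads of it, with 95% Wilson intervals and a dashed line at 50%. Igkv3-10, Igkv3-5, Igkv3-3 and Igkv3-2 sit at or near 100% in every library shown, while Igkv3-12, Igkv3-7, Igkv3-4 and Igkv3-1 spread widely, with clones 4 and 8 uppermost in each.

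Counted as skewed with over 80% of reads on 1 allele, among segments with at least 10 reads, 7 of 8 members were skewed to B6 in clone 4 (50.5% of all segments were) and 7 of 8 in clone 8 (48.5%). The exception in both was Igkv3-1. Of the 7 in each, Igkv3-10, Igkv3-5, Igkv3-3 and Igkv3-2 had 0 Cast reads there and few or none in any library. Their skew therefore does not set these clones apart, and the others were Igkv3-12, Igkv3-7 and Igkv3-4. In B52 4 of 7 members were skewed to B6 (40.6%), and 3 of 7 were in the pool (35.6%), in clone 3 (34.3%) and in E9-3 (34.7%), which in these last libraries were segments with few or no Cast reads anywhere. Skewing to Cast was seen for Igkv3-1 in clone 3 (18.6% of all segments) and for Igkv3-7 in E9-3 (10.5%). It was seen for 0 members in the pool (8.91%), clone 4 (7.77%), clone 8 (12.9%) and B52 (12.5%).

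The B6 share of each segment was then compared between libraries by two-sided Fisher's exact tests with Benjamini-Hochberg adjustment over all segments with at least 10 reads in both, and called at an adjusted p under 0.05 with a difference of at least 20 percentage points. Over the 10 pairs of clones, 28 of 71 tests of members were called, beside 30.1% of the 961 tests of all segments. The calls were made for Igkv3-7 in 9 pairs, Igkv3-12 in 7, Igkv3-1 in 7 and Igkv3-4 in 5, and for no other member. The 71 also count tests of Igkv3-10, Igkv3-5, Igkv3-3 and Igkv3-2, which had few or no Cast reads anywhere. These stood at 98.4% to 100% on B6 in all clones tested, so that their lack of calls says little. The largest adjusted p among the calls was 2.86e-07 in Fisher's exact test, for Igkv3-1 between clones 8 and B52. With counts divided by the excess variation between the libraries of clone 4, described with that pair, 24 of 71 tests were called, beside 15.1% of all segments, and the 4 lost were all of Igkv3-1. These were clone 4 against B52 (adjusted p = 0.431) and E9-3 (0.275) and clone 8 against B52 (0.623) and E9-3 (0.449), in Fisher's exact test. These tests compare libraries, not clones, because reads are not independent samples of a clone.

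The pair formed by clones 4 and 8 had 0 of 8 members called (13.0% of all segments were), and 0 of 8 reached an unadjusted p of 0.05. Of these members, 4 had no Cast read in either clone and 3 others lay at 98.0% to 99.7% in both, so that this count says little of how alike the clones are. The closest was Igkv3-7, with 99.7% in clone 4 and 99.0% in clone 8 (p = 0.0508 and adjusted p = 0.108 in Fisher's exact test). E9-3 differed from clone 4 by 80.5 points for Igkv3-7, 65.2 points for Igkv3-12, 42.3 points for Igkv3-1 and 27.2 points for Igkv3-4, 4 of 7 members tested (35.8% of all segments). The same 4 members were called between clone 8 and E9-3 (44.7%), clones 3 and 4 (42.6%) and clones 3 and 8 (41.4%). B52 differed from clone 4 (27.4%) and clone 8 (35.1%) in Igkv3-12, Igkv3-7 and Igkv3-1, and from clone 3 (26.3%) in Igkv3-7, Igkv3-4 and Igkv3-1, with 3 of 7 members each. Between B52 and E9-3, 2 of 7 were called (18.3%), with Igkv3-7 33.7 points and Igkv3-12 29.2 points higher in B52. Between clones 3 and E9-3 1 of 7 was called (15.8%), with Igkv3-7 54.9 points higher in clone 3.

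Against the pool, 10 of 32 tests of the B6 share of members were called (32.6% of all segments). The 32 again count members with few or no Cast reads anywhere. In clone 4 (34.0%) and clone 8 (30.3%) the calls were Igkv3-12, Igkv3-7, Igkv3-4 and Igkv3-1, 4 of 7, all with more B6. The calls of Igkv3-1 in both clones were lost with counts divided by the excess variation (adjusted p = 0.0539 and 0.106 in Fisher's exact test). In clone 3 (35.4%) it was Igkv3-7, which was 32.5 points higher, and in E9-3 (34.0%) again Igkv3-7, which was 22.4 points lower than in the pool, 1 of 6 in each. In B52 0 of 6 were called (29.0%), although Igkv3-12 reached a difference of 19.3 points, just short of the limit, and the adjusted p was under 0.05 for 4 of the 6 members.

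The level of each segment on each allele was compared with the pool by the same test and adjustment. It was called at an adjusted p under 0.05 with a change of at least 2-fold. These tests covered segments with at least 10 reads on that allele over the compared libraries together, so that either library could hold fewer, or none. On Cast, 4 of 4 members tested were lower in clone 4 (39.7% of all segments) and 4 of 4 in clone 8 (32.5%). These were Igkv3-12, Igkv3-7, Igkv3-4 and Igkv3-1. Igkv3-12, Igkv3-7 and Igkv3-4 had 8, 2 and 3 Cast reads in clone 4, and Igkv3-4 had 4 in clone 8. Such members passed the minimum only through the pool, and members low in both libraries were not tested. The counts of 4 of 4 therefore say little beyond the levels themselves. Igkv3-1 was 22.7-fold lower in clone 4 and 33.0-fold lower in clone 8, while Igkv3-12 was 108-fold and 49.6-fold lower. In these clones Igkv3-1 was the 1 member of 8 that was lower on B6 as well (20.4% and 22.4% of all segments), by 2.55-fold in clone 4 and 4.82-fold in clone 8. Higher on B6 than the pool were Igkv3-10 and Igkv3-3 in clone 4, 2 of 8 (30.6%), and Igkv3-10, Igkv3-7 and Igkv3-3 in clone 8, 3 of 8 (26.5%). Igkv3-3 had 1 read in the pool and entered these tests only through clones 4 and 8. On Cast 0 of 4 were higher in either (15.4% and 28.6%). In the second library of clone 4, Igkv3-10 was under the pool, at 0.0274% (3 reads) against 0.0343%, and Igkv3-3 had 1 read, too few to test. With counts divided by the excess variation, the calls of Igkv3-3 and Igkv3-1 on B6 in clone 4 were lost (adjusted p = 0.0634 and 0.0967 in Fisher's exact test).

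Compared with the pool, B52 was higher on B6 for 6 of 8 members (25.5% of all segments) and on Cast for 3 of 5 (22.8%). Those on B6 were Igkv3-12 (7.23-fold), Igkv3-10 (6.29-fold), Igkv3-7 (17.4-fold), Igkv3-3, Igkv3-2 (6.18-fold) and Igkv3-1 (2.72-fold). Clone 3 was higher on B6 for 4 of 8 members (16.2%), which were Igkv3-12, Igkv3-10, Igkv3-7 and Igkv3-3, and on Cast for Igkv3-12 and Igkv3-2, 2 of 5 (43.2%). E9-3 was higher on B6 for Igkv3-7, Igkv3-3 and Igkv3-2, 3 of 8 (21.4%), and on Cast for Igkv3-7 and Igkv3-2, 2 of 5 (32.1%). Igkv3-2 on Cast rested on 45 reads in clone 3, 9 in B52 and 5 in E9-3, against 6 in the pool. The 1 member lower on B6 in clones 3, B52 and E9-3 was Igkv3-5, where 36.4%, 49.0% and 40.8% of all segments were lower. It had 0 reads in these clones and entered the tests through the pool alone. Igkv3-3, with 1 read in the pool, entered through the clones alone. The split of reads between Igkv3-5 and Igkv3-10 is uncertain, which bears on the calls of both. On Cast 0 of 5 members were lower in these clones (19.8%, 51.9% and 38.5%). With counts divided by the excess variation, the calls of Igkv3-2 on Cast were lost in all 3 clones, with those of Igkv3-5 in B52 and E9-3 and of Igkv3-10 in clone 3. The 5 comparisons share the pool, so that they are not independent of each other.

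Clone 4 at 48 h was the only condition with a second library. In its B6 share, 0 of 5 members were called (13.1% of all segments) and 0 of 5 were at an unadjusted p under 0.05. The time course library held 9 to 91 B6 reads of each of them, and 2 Cast reads in all, both of Igkv3-1, so that smaller differences were not detectable at this depth. Igkv3-7 on B6 held 1.19% (769 reads) in the library listed with the other clones and 0.0913% (10 reads) in that of the time course, a 13.0-fold difference (adjusted p = 1.41e-37, Fisher's exact test on reads). Igkv3-10 on B6 held 0.133% and 0.0274%, with 86 and 3 reads (adjusted p = 0.00285, Fisher's exact test), and entered the test only through the first of these libraries. These were 2 of 8 members higher (19.8% of all segments), and 0 of 8 were lower (11.5%). On Cast the 1 member tested, Igkv3-1, was not called (22.5% of all segments were higher and 15.5% lower). Igkv3-2 (1.19% and 0.767%, 1.55-fold) and Igkv3-4 (0.793% and 0.520%, 1.52-fold) differed by less than the 2-fold required, with adjusted p = 0.000177 and 0.00385 in Fisher's exact test. Igkv3-12 held 0.773% and 0.830%, which did not differ beyond counting error.

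The difference in Igkv3-7 between libraries of 1 clone was thus larger than its difference from the pool in clone 3 (5.18-fold) and E9-3 (3.95-fold) on B6. The same held on Cast for E9-3 (11.8-fold), B52 (11.0-fold) and clone 3 (1.29-fold), and on B6 for clone 8 (2.40-fold) and clone 4 (1.95-fold). It was smaller than that in B52 on B6 (17.4-fold) and than those on Cast in clone 8 (56.7-fold lower) and clone 4 (at least 185-fold lower). With the time course library in place of the other, clone 4 stood at 0.0913% on B6, under the pool, where the first library had stood above it. Of the calls of the B6 share, Igkv3-7 between clones 3 and 4 (adjusted p = 0.106) and Igkv3-1 between clones 4 and B52 (adjusted p = 0.0517) were then lost in Fisher's exact test, with 10 and 11 reads in that library, while the differences stayed at 25.9 and 35.1 points. Over all segments, the B6 share varied between these libraries by a mean chi-square of 15.4 over 84 segments, so that tests on reads give p-values that are too small. This value was measured on the B6 share in this pair alone, and was used to divide the counts in the tests of levels as well. The calls of members then lost are given with each comparison, and in this pair both calls of levels were lost (adjusted p = 0.159 for Igkv3-7 and 1 for Igkv3-10 in Fisher's exact test).

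In the time course of clone 4, Igkv3 reads were few, and all but 2 Cast reads at 48 h came from B6. They numbered 19, 25, 152 and 257 at the 4 times, in libraries of 1737, 1174, 7092 and 10958 reads. As a percent of the library these were 1.09% (0.701 to 1.70), 2.13% (1.45 to 3.12), 2.14% (1.83 to 2.51) and 2.35% (2.08 to 2.65), so that the 12 h value was lowest, although its interval overlapped that of 24 h. Without Igkv19-93, a segment outside the family that took most reads of the 12 h library, the values were 2.66%, 3.13%, 2.52% and 2.58%, and the 12 h library was no longer lowest.

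Igkv3-2 had 11, 8, 62 and 84 B6 reads at 12, 24, 36 and 48 h, or 0.633%, 0.681%, 0.874% and 0.767% of the library, and was present from the first time on. Igkv3-12 had 0, 8, 42 and 91, or 0%, 0.681%, 0.592% and 0.830%. Igkv3-4 had 2, 6, 33 and 57, or 0.115%, 0.511%, 0.465% and 0.520%. At 12 h Igkv3-12 and Igkv3-4 were the 2 of 4 members called lower than at 48 h on B6, beside 50.7% of all segments (adjusted p = 1.51e-05 and 0.0358 in Fisher's exact test), and with counts divided by the excess variation 0 were. Both members entered this test only through their reads at 48 h, having 0 and 2 reads at 12 h. At 24 h and 36 h 0 of 5 and 0 of 4 members tested were called lower (20.8% and 5.19% of all segments on B6 were). Of the members tested, 0 of 4, 0 of 5 and 0 of 4 were called higher on B6 than at 48 h at 12, 24 and 36 h (9.86%, 9.72% and 1.30% of all segments).

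Igkv3-7 had 0, 0, 12 and 10 B6 reads, Igkv3-1 had 0, 3, 0 and 9, and Igkv3-10 had 0, 0, 1 and 3. Igkv3-3 had 6, 0, 2 and 1, and was too low to test. Its level was 0.345% at 12 h (0.158 to 0.752) and 0.00913% at 48 h (0.00161 to 0.0517). These intervals cover counting error only, reads carried no molecular identifiers, and the difference was not tested. The other 48 h library of clone 4 held 0.0448% (29 reads). Igkv3-5 and Igkv3-9 were not read. With 3 reads as the floor, a count of 0 at 12 h allows up to 0.173% of that library and at 24 h up to 0.256%. Absence cannot be told apart from a level under these limits. On Cast, 0 of 274 Cast reads at 12 h and 0 of 241 at 24 h were Igkv3. By the same floor this allows shares of up to 1.09% and 1.24%, while 0 of 1690 at 36 h allows 0.178%.

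**Figure D5:**
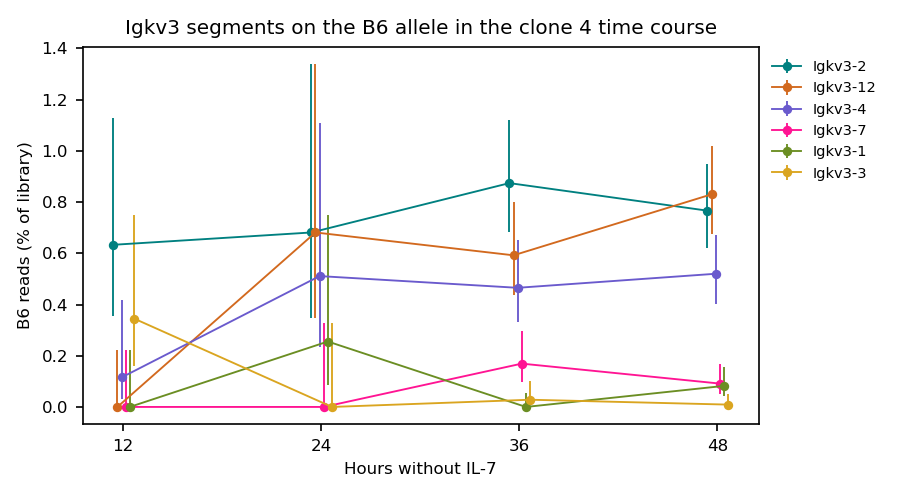
B6 reads of 6 Igkv3 segments as a percent of all V reads in the clone 4 time course, against hours without IL-7 (12, 24, 36 and 48). Bars are 95% Wilson intervals and points are set slightly apart. Igkv3-2 stays between 0.633% and 0.874%, and Igkv3-12 goes from 0 reads at 12 h to 0.830% at 48 h.

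The segment whose total level followed that of the family most closely over the 6 libraries of the clones and the pool was Igkv16-104, with a Pearson r of 0.959 on the log2 scale. It lies in another family and held 2.57% in B52, 1.46% in clone 3, 1.26% in E9-3, 0.709% in the pool, 0.439% in clone 8 and 0.303% in clone 4. Igkv8-18 (r = 0.799) and Igkv8-16 (r = 0.779) came next. These values describe 6 libraries that share their totals, and were chosen as the highest among all segments.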

How the data were processed

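κ VJ-seq of 10 libraries was used out of 32 samples; ATAC-seq and RNA-seq samples were not analysed here. cDNA was primed in Cκ, ligated to an adapter and amplified by PCR. Per the labels and methods, the authors trimmed reads with Trim Galore, mapped them with Bowtie2 on a combined B6 and Cast genome (mm10) and assigned them to V segments with HTSeq. The deposited values are raw read counts per segment and allele, without normalization; program versions are not given in the sources used here. A joint amplified more often therefore counts more often.

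From the counts, percent of library (both alleles in the total) and B6 share were computed in Python 3.11.15 (pandas 2.3.3, SciPy 1.17.1, NumPy 2.4.6), V exons were aligned with Biopython 1.88, and plots used matplotlib 3.10.9. Wilson intervals (95%) were used, and the floor was 3 reads. Both cover counting error only. No count model was fitted, and only clone 4 at 48 h has a second library. Tests of the B6 share ran over all segments with at least 10 reads in both libraries. Tests of levels ran over those with at least 10 reads on the allele in both libraries summed. The tests were tried on simulated counts with counting error only, without the excess variation seen between the libraries of clone 4. That trial cannot show how many false calls such variation makes. Folds use the floor where a library had fewer reads than it. Positions come from GENCODE M21, sequences from the RefSeq GRCm38 genome, and 111 of 112 segments were found by name. All 9 members are named, and the 3 other segments with the highest r. The members and lists were chosen with earlier results of these data known. Alternatives varied the read minimum, thresholds, denominators, the counts' excess variation, the library of clone 4, Igkv3-7 and Igkv19-93.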

Additional observations from a re-analysis of the deposited data

Results flagged for a closer look

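The B6 share of Igkv3-12 lay on opposite sides of 50% in 6 pairs of clones, with clones 4, 8 and B52 above and clones 3 and E9-3 below. The pair of clones 3 and B52 was short of the 20 points required by the test, and the other pairs were called. That of Igkv3-7 did so in 4 pairs, all of them clone E9-3 (19.2% on B6) against another clone (53.0% to 99.7%). That of Igkv3-1 did so in 6 pairs, with clones 4 and 8 above 50% and clones 3, B52 and E9-3 below it, and all 6 were called by Fisher's exact test. With counts divided by their excess variation, 2 of the 6 were, both of them clone 3 against clones 4 and 8. As a percent of the same allele's reads, B52 held more on Cast than on B6 for Igkv3-12 (12.9% and 11.1%) and Igkv3-7 (27.7% and 16.2%). With the alleles scaled to their totals, B52 thus stood below 50% for both members, which changes the opposite pairs named for them. Each clone had 1 library here, so that these are differences between libraries, and their cause was not tested.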

How the results depend on the processing

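No paired analysis was possible because the VJ-seq labels carry no replicate numbers, which only samples not analysed here do. In the order pool and clones 3, 4, 8, B52 and E9-3, the family held 6.23%, 10.2%, 3.13%, 3.52%, 23.3% and 12.3% of the library without Igkv3-7, and without Igkv19-93 8.03%, 14.8%, 4.51%, 5.26% and 44.8% in the first 5. As a percent of the same allele's reads it held 7.30%, 17.3%, 5.96%, 7.85%, 42.8% and 20.5% on B6, and 8.23%, 11.5%, 0.175%, 0.177%, 44.7% and 29.8% on Cast. The time course library put clone 4 at 2.35%, with 99.2% on B6. In that course, the values without Igkv19-93 were 2.66%, 3.13% and 2.52% at 12, 24 and 36 h, and the percents of own-allele reads were 2.81% at 36 h and 3.03% at 48 h on B6 and 0.0784% at 48 h on Cast.

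In the same order, the family B6 share was 68.4%, 70.3%, 97.1%, 96.4%, 77.5% and 65.9% as an unweighted mean of members, and 47.0%, 60.0%, 97.1%, 97.8%, 48.9% and 40.8% with the alleles scaled to their totals, which moved the pool and clone B52 across 50%. Without Igkv3-7 it was 57.5% in the pool, 55.8% in clone 3, 75.0% for B52 and 70.1% for E9-3, so that the Cast excess of E9-3 rested on Igkv3-7. Over the 4 members read on both alleles, chosen once the data had been seen, it was 46.7%, 55.5%, 98.3%, 98.3%, 57.9% and 30.8%. Clones 4 and 8 stayed above 96% in each of these settings.

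With a threshold of 90%, 0 members were skewed to Cast. With no minimum difference, 21 of 32 tests of the B6 share against the pool were called (62.9% of all segments). Between the libraries of clone 4, 5 of 8 levels on B6 were called higher at 1.5-fold (30.2% of all segments), those of Igkv3-10, Igkv3-7, Igkv3-5, Igkv3-4 and Igkv3-2, and 0 with counts divided by their excess variation, which was estimated from this same pair, and which also left 0 calls in the time course. Over the pairs of clones that division left 24 of 71 tests called (15.1% of all segments), the time course library of clone 4 gave 26 of 62 (34.1%), and summing the near-identical members gave 20 of 60 (29.6%), the last 2 chosen after seeing the data. Of 80 called values of single members, that division kept 62. A minimum of 30 points kept 28 of 38, 3-fold kept 36 of 42 and percents of the same allele's reads kept 41 of 42. None changed direction with these or with the other read minimums. With the time course library of clone 4, 18 of the 21 that could be tested were kept, 2 were lost and 1 turned, Igkv3-10 on B6 over the pool (log2 fold -0.32, adjusted p = 1 in Fisher's exact test). Depth limits the time course most, where 3 reads are 0.256% of the 24 h library and 0.173% of the 12 h library.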
